A study of Mus musculus with 20 samples.

Results

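Loss of the transcriptional regulator Aire was examined on the B6 background, in medullary epithelial cells sorted from the thymi of 3 Aire knockout (KO) and 3 Aire wild-type (WT) mice. These 6 arrays were taken by their titles from a series of 20, whose other 14 arrays come from 4 KO and 4 WT mice of the BALB background and 3 KO and 3 WT mice of the NOD background. All mice were males aged 3 to 4.5 weeks, and each array holds RNA from 1 thymus. The cells were gated as negative for the leukocyte marker CD45, positive for the epithelial antigen G8.8, with intermediate Ly51 and much MHC class II. The labels give neither the Aire allele nor the origin of the WT mice, and do not say whether these were littermates. RNA was amplified in 2 rounds before hybridisation to a mouse Affymetrix array. Each of 18193 genes was read from 1 probe set, the one with the highest mean over all 20 arrays, and values are log2 of the deposited intensities.

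Medullary epithelial cells of the thymus are known for transcribing genes that otherwise belong to single peripheral organs, and for showing the products to developing T cells. Aire, expressed in the mature cells with high MHC class II, is a chromatin-associated factor known to be needed for many of these transcripts. T cells that recognise such products strongly are deleted or turned into regulatory T cells, and a lack of Aire leads to autoimmunity in mice and humans.

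The 250 bases upstream of the annotated start are shown for 6 of the 12 genes with the largest falls in KO mice, because these genes carry the largest differences of the comparison. They are the 6 largest falls with an entry in the promoter table. The sequences are from RefSeq (build GRCm38.p6), are written 5′ to 3′ on the strand of the gene, and have each CG dinucleotide in capitals.
Hbb-y: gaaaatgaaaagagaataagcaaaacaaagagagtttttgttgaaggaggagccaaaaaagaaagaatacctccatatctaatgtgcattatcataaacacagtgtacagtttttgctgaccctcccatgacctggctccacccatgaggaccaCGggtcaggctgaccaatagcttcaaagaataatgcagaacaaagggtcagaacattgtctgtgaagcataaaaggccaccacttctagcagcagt
Mucl2: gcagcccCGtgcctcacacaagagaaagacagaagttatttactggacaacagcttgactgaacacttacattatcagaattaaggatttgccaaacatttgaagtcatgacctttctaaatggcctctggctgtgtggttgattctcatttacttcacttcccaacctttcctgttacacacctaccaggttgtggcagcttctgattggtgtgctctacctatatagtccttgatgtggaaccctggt
Nts: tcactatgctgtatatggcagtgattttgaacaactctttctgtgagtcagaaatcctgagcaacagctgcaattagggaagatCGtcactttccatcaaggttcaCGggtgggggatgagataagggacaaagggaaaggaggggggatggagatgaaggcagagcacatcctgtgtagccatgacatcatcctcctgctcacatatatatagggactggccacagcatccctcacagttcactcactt
Gpr50: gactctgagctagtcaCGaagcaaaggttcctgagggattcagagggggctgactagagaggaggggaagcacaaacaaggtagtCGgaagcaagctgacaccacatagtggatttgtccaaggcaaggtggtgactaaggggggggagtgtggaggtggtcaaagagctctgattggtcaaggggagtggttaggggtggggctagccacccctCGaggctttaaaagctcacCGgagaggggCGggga
Csn1s2a: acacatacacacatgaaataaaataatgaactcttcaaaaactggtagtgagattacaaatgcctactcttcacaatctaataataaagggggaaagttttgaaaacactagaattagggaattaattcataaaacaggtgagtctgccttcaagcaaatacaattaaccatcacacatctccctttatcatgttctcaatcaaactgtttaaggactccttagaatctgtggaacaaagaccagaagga
Bex1: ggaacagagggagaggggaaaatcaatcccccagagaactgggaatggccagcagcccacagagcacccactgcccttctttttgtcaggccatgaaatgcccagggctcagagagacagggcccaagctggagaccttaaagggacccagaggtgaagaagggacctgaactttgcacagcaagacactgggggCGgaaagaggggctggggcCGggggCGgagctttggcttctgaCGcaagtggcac
Hbb-y lies on the minus strand and the stretch spans chr7:103853208-103853457. The stretch of Mucl2 spans chr15:103899313-103899562 on the minus strand, that of Nts chr10:102490419-102490668 on the minus strand, and that of Gpr50 chrX:71663417-71663666 on the plus strand. Csn1s2a has chr5:87774200-87774449 on the plus strand and Bex1 chrX:136215514-136215763 on the minus strand. Csn1s2a held 0 CG, Hbb-y and Mucl2 1 each, Nts 2, Bex1 4 and Gpr50 5. Over the same 250 bases of all 32851 promoters of the table, the median was 6 and 37.8% held 3 or fewer. The letters TATAAA on the sense strand were present in 7.59% of these promoters, and TATAA, which TATAAA contains, on either strand in 22.8%. Neither was found in any of the 6. A match or its lack is a description of these letters only.

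Array medians of the 6 B6 arrays lay between 88.0 and 90.6 intensity units. The number of arrays limits the precision. The log2 difference between the 3′ and 5′ control probe sets of Gapdh, which rises when transcripts are shortened, was 2.91, 1.68 and 1.84 in KO mice 1, 2 and 3, against 3.76, 1.90 and 2.31 in WT mice 1, 2 and 3. KO mouse 1 and WT mouse 1 were therefore the highest of their groups, and the 14 arrays of the other strains lay between 2.15 and 3.04. KO mice 2 and 3 resembled each other most (r = 0.996 across probe sets, which are not independent replicates, with 31 identical values). WT mouse 2 stood near them in several genes described below. Counts are therefore also given without these 3 arrays, which leaves 1 KO and 2 WT mice, with the lone KO mouse assumed to vary like the other groups. H2-Ea, known to be defective in B6 and NOD mice and intact in BALB mice, averaged 9.28 in B6 KO and 9.23 in B6 WT mice, and 12.3 in BALB KO and 11.9 in BALB WT mice. It was low in both B6 groups and high in both BALB groups. Nnt, known to be partly deleted in some B6 lines, averaged 7.87 in B6 KO and 8.58 in B6 WT mice, 9.08 in BALB KO and 9.32 in BALB WT mice, and 9.63 in NOD KO and 9.79 in NOD WT mice. Its difference in B6 (-0.71 ± 0.24) did not pass (adjusted p = 0.0732), but did without KO mouse 1 (-1.01) or WT mouse 2 (-0.91).

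Aire itself was not lower in KO mice by its probe set. It read 11.54, 11.48 and 11.56 in KO mice, against 10.81, 10.73 and 10.65 in WT mice. All KO values lay above all WT values, but the difference of 0.80 ± 0.26 (SE, n = 3 each) did not pass the threshold (limma, adjusted p = 0.067). The labels do not say which part of Aire was removed, so a probe set outside it would still read the remaining transcript and the value checks nothing about the genotype.

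Genes that differed were mostly lower in KO mice. In such bulk samples, fewer cells of a type and less RNA per cell cannot be told apart. At an adjusted p of 0.05 (limma over all 45037 probe sets, Benjamini-Hochberg), 1686 genes fell (9.27% of 18193) and 580 rose (3.19%), 12.5% in all, and 3880 probe sets passed (8.62%). At least 2-fold changes were met by 916 falling genes (5.03%) and 190 rising genes (1.04%). At least 8-fold, 60 genes fell (0.33%) and 0 rose, while 4709 genes (25.9%) had an unadjusted p under 0.05 by limma. The 3 KO values did not overlap the 3 WT values in 897 of the 916 and in 166 of the 190. Over all genes, such separation was met by 17.5% with KO lower and 11.2% with KO higher. The 916 and 190 genes were chosen by size and adjusted p on the same mice. Their separation is largely built into that choice. The median difference was 0.013 over all genes.

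The number of rising genes depended on single mice. It was 923 without KO mouse 1 and 930 without WT mouse 2, but 329 without KO mouse 2, 284 without KO mouse 3, 362 without WT mouse 1 and 333 without WT mouse 3. The 190 genes that rose at least 2-fold became 293 without KO mouse 1 and 295 without WT mouse 2. Without WT mouse 2 and KO mice 2 and 3, 642 genes fell and 81 rose at least 2-fold. All 916 and all 190 genes kept their sign in that fit, with 819 and 135 still at least 2-fold by size alone. These genes were chosen on the same arrays. For the 897 and 166 whose mice did not overlap, no choice of mice could change the sign. Within KO mice 2 and 3 and WT mice 2 and 3, whose sample codes form 1 run in the labels, all 916 and 190 genes kept their sign too. This is under the same limit, and 838 and 168 of them were past the threshold.

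Falling genes came from the middle of the intensity scale more than from its ends. Genes were placed in 5 bins of equal size by their level in the WT mice of BALB and NOD, which did not enter the B6 difference, although their spread entered its SE. The share that fell at least 2-fold was 2.14%, 4.21%, 7.17%, 6.73% and 4.92% from the lowest to the highest bin. The share that rose at least 2-fold ran from 0.687% in bin 2 to 1.57% in bin 4.

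**Figure D1:**
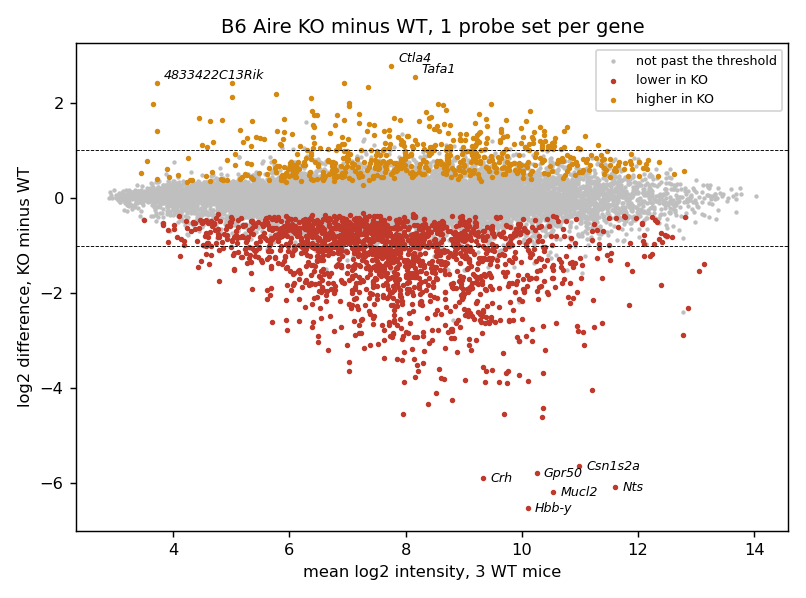
The log2 difference of KO minus WT is plotted against the mean log2 intensity of the 3 WT mice, 1 point per gene, with dashed lines at a 2-fold change. The points of the 1686 genes that fell reach below -6, while no rising gene reaches 3.

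The largest fall was in Hbb-y, an embryonic beta-globin of red cells. It read 3.53, 3.65 and 3.53 in KO mice, against 10.81, 9.06 and 10.42 in WT mice. The KO values were close together near the bottom of the scale and far below every WT value, a 92.3-fold difference (log2 -6.53 ± 0.36, adjusted p = 2.91e-09). Mucl2, a mucin-like protein of exocrine glands, read 4.47, 4.19 and 4.39 in KO mice and 10.72, 10.53 and 10.35 in WT mice (log2 -6.19 ± 0.43, adjusted p = 3.97e-08). The 3 mice of each genotype were alike and the genotypes were far apart. Both promoters, shown above, held 1 CG each.

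Peptides of the nervous system were among the largest falls. Nts, the neuropeptide neurotensin, read 5.94, 5.22 and 5.42 in KO mice, against 11.62, 11.59 and 11.61 in WT mice (log2 -6.08 ± 0.23, adjusted p = 4.87e-11). The WT mice were nearly equal and the KO mice spread a little more. Crh, the corticotropin-releasing hormone of the hypothalamus, read 3.50, 3.37 and 3.44 in KO mice and 10.15, 8.26 and 9.58 in WT mice (log2 -5.89 ± 0.35). WT mouse 2 was the lowest of the WT mice but still far above every KO mouse. Gpr50, a receptor related to the melatonin receptors, read 4.45, 4.65 and 4.30 in KO mice and 10.79, 10.02 and 9.96 in WT mice (log2 -5.79 ± 0.25). Its other probe set fell much less (-0.68 ± 0.19).

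Bex1, a small protein first found in brain and encoded on the X chromosome, varied more. It read 7.22, 4.67 and 5.33 in KO mice, against 11.17, 9.06 and 10.83 in WT mice (log2 -4.61 ± 0.62, adjusted p = 7.25e-05). KO mouse 1 was the highest of the KO mice and WT mouse 2 the lowest of the WT mice, without overlap. Csn1s2a, a milk casein, read 5.36, 5.09 and 5.57 in KO mice and 11.63, 10.20 and 11.12 in WT mice (log2 -5.65 ± 0.35). Here the KO mice were again the tighter group. Another Csn1s2a probe set fell (-5.04 ± 0.28), while further ones read -0.24, -0.18 and 0.08 without passing.

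The other large falls were spread over organs. C1qtnf3, a secreted protein of cartilage and fat, differed by -4.55 ± 0.30 on the log2 scale and Fgg, the gamma chain of fibrinogen made by the liver, by -4.54 ± 0.25. Reg3b, an antibacterial lectin of the gut, read 6.54, 5.44 and 5.87 in KO mice and 9.80, 10.42 and 10.89 in WT mice (log2 -4.42 ± 0.40). Asb4, a SOCS-box protein, differed by -4.25 ± 0.30 and BC080696 by -4.34 ± 0.28. For each of these 5 genes, all KO values lay below all WT values.

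Rises were smaller. Ctla4, an inhibitory receptor best known from T cells that binds Cd80 and Cd86, read 10.20, 10.82 and 10.58 in KO mice, against 7.38, 7.94 and 7.91 in WT mice. Every KO mouse was above every WT mouse, by 2.79 ± 0.20 on the log2 scale (6.90-fold, adjusted p = 5.02e-08). Tafa1, a secreted chemokine-like protein of the nervous system, read 10.56, 10.78 and 10.78 in KO mice and 7.86, 8.11 and 8.49 in WT mice (log2 2.55 ± 0.27). The KO mice were again close together.

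Other rises included Tmem241 (log2 2.42 ± 0.20), Ptchd4, a membrane protein with a patched domain (2.33 ± 0.30), St6galnac3, a sialyltransferase (2.19 ± 0.26), and 1810006J02Rik (2.10 ± 0.31). Gabra4, a subunit of the receptor for the transmitter GABA, read 6.77, 6.91 and 7.74 in KO mice and 5.11, 5.15 and 4.77 in WT mice (log2 2.13 ± 0.30). Cnnm2, a membrane protein linked to magnesium handling, read 8.35, 9.54 and 9.23 in KO mice and 6.81, 7.46 and 6.82 in WT mice (log2 2.01 ± 0.33). Other probe sets of Tmem241 (0.37 and 0.24), Cnnm2 (0.36) and St6galnac3 (0.19) did not pass. Others of Ptchd4 (1.56), Gabra4 (0.80) and St6galnac3 (2.24) rose. KO mouse 1 was the lowest KO mouse for Cnnm2, and without KO mice 2 and 3 and WT mouse 2 its adjusted p was 0.071.

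**Figure D2:**
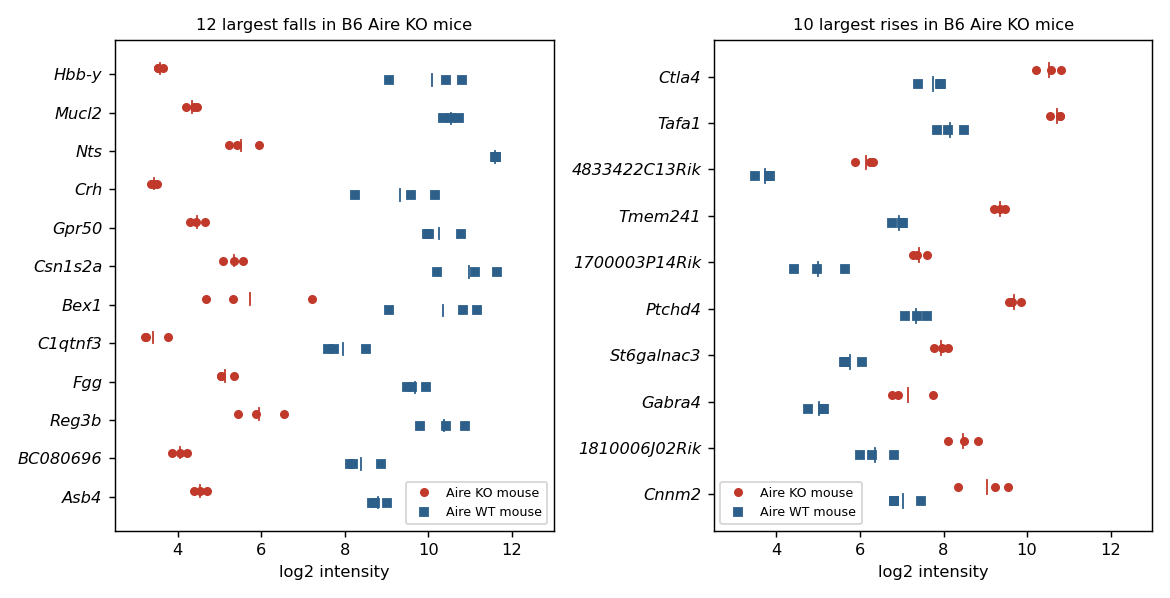
Log2 intensity of each mouse is shown for the 12 largest falls and the 10 largest rises, with KO mice as circles above WT mice as squares and a short line at each group mean. Genes were picked for having no overlap between the 2 genotypes, and the falls span up to 6.53 log2 units while the rises span up to 2.79.

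Genes were next grouped by organ. The share of all genes that fell was 9.27%, with a median difference of 0.013, and each list is read beside these. The lists and their members were chosen with earlier results of these data known, so their shares are not independent of these arrays. Among pancreas genes, 15 of 20 measured fell, with a median of -1.43. Reg1, a secreted protein of acinar cells, differed by -2.98 ± 0.33, Iapp, the islet amyloid peptide, by -2.87 ± 0.40, Ppy, the pancreatic polypeptide, by -2.77 ± 0.26, and Spink1, a trypsin inhibitor, by -2.72 ± 0.31. Of 22 liver genes, 13 fell (median -1.62), among them Fgb, the fibrinogen beta chain (-3.47 ± 0.31), Itih3, a heavy chain of the inter-alpha-trypsin inhibitors (-3.23 ± 0.27), and Saa1, an acute phase protein (-3.10 ± 0.28).

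Of 21 intestine genes, 12 fell (median -1.23). Fabp2, which carries fatty acids in enterocytes, read 5.998, 6.08 and 6.02 in KO mice and 9.78, 9.45 and 9.94 in WT mice (log2 -3.69 ± 0.32). Tff3, a trefoil peptide of goblet cells, differed by -3.26 ± 0.23 and Reg4 by -3.06 ± 0.27. In stomach, 5 of 11 fell: the gastrokines Gkn2 (-2.35 ± 0.25) and Gkn1 (-1.98 ± 0.16), the mucin Muc5ac (-1.16 ± 0.22), and the trefoil peptides Tff2 (-1.14 ± 0.17) and Tff1 (-0.62 ± 0.12). Without WT mouse 2 and KO mice 2 and 3, 2 stomach genes fell.

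Glands were affected to different degrees. Among salivary and lacrimal genes 9 of 14 fell (median -0.97), including Mucl1 (-3.55 ± 0.39), the kallikrein Klk1b5 (-3.40 ± 0.32) and Bpifa2, a salivary secretory protein (-3.16 ± 0.26). In lung, 6 of 11 fell (median -1.29), led by Scgb1a1, the secretoglobin of club cells (-2.48 ± 0.34), and the surfactant proteins Sftpd (-1.92 ± 0.21) and Sftpc (-1.54 ± 0.15). Scgb3a2, another secretoglobin, differed by -1.33 ± 0.15. The other Sftpc probe set read 0.20 ± 0.13 without passing. In the mammary gland 2 of 9 fell, both caseins, Csn1s2a and Csn1s1 (-1.94 ± 0.29), and without the 3 arrays named above 1 did.

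In male accessory glands 5 of 9 fell. Svs4, a seminal vesicle protein, read 4.05, 4.10 and 4.14 in KO mice and 8.52, 7.27 and 8.11 in WT mice (log2 -3.87 ± 0.29). Defb1, a defensin (-1.34 ± 0.21), Pate4 (-1.22 ± 0.27), Svs3a (-0.81 ± 0.12) and Svs5 (-0.46 ± 0.14) fell too. The call of Svs5 was lost without any of KO mice 1, 2 and 3 and WT mice 1 and 3 (highest adjusted p = 0.216), and 3 genes fell without the 3 arrays. Only 2 of 19 testis genes fell, the RNA helicase Ddx4 (-2.72 ± 0.37) and Ldhc, a lactate dehydrogenase of sperm (-2.24 ± 0.24), with a list median of -0.06.

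Of 19 brain and nerve genes, 12 fell (median -1.01). Over all 37 of their probe sets 14 fell and 1 rose, with a median of -0.12. Beside Nts and Crh, they included Vip, the vasoactive intestinal peptide (-2.92 ± 0.25), and Tac1, the precursor of substance P, which read 8.03, 8.03 and 8.62 in KO mice and 11.12, 10.76 and 11.25 in WT mice (-2.82 ± 0.27). Both groups were again clearly apart on this probe set, while the other Tac1 probe set read 0.16 ± 0.14 without passing. Among 12 retina genes 2 fell, Rcvrn, the calcium sensor recoverin (-0.79 ± 0.19), and Pde6b, a rod phosphodiesterase (-0.37 ± 0.10). The call of Rcvrn was lost without KO mouse 3 or WT mouse 1, that of Pde6b without KO mouse 1, KO mouse 3, WT mouse 1 or WT mouse 3. The retina count was 1 without KO mouse 1 or WT mouse 3 and 0 without KO mouse 3 or WT mouse 1.

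Among 13 endocrine genes 5 fell: Pth, the parathyroid hormone (-2.60 ± 0.31), Cga, the shared alpha chain of pituitary hormones (-2.35 ± 0.25), Pomc, the precursor of corticotropin (-2.35 ± 0.32), Tshb, the beta chain of thyrotropin (-0.91 ± 0.23), and Star, a carrier of cholesterol for steroid synthesis (-0.40 ± 0.10). The count was 3 without KO mouse 2, KO mouse 3 or WT mouse 1. Tshb also lost its call without WT mouse 3. Of 8 kidney genes 1 fell, Umod, the urinary glycoprotein uromodulin, which read 6.96, 5.71 and 6.002 in KO mice and 9.47, 7.96 and 9.37 in WT mice (-2.71 ± 0.39).

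Of 18 striated muscle genes 6 fell and 1 rose. Myh3, the embryonic myosin heavy chain, differed by -3.81 ± 0.37, the perinatal Myh8 by -2.29 ± 0.36 and the cardiac actin Actc1 by -1.86 ± 0.15. Pln, the calcium pump regulator phospholamban, was the gene that rose (1.22 ± 0.24). Of 14 cartilage and bone genes 6 fell and 1 rose. Cilp, a cartilage matrix protein, read 7.24, 7.13 and 7.18 in KO mice and 11.72, 11.09 and 10.84 in WT mice (-4.03 ± 0.24). Ibsp, the bone sialoprotein, differed by -3.37 ± 0.32, but its other probe set read -0.09 ± 0.21 without passing. Epyc, a small proteoglycan of cartilage, rose (1.96 ± 0.47), a call lost without KO mouse 2, KO mouse 3 or WT mouse 3 (highest adjusted p = 0.0823).

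Of 4 globins 3 fell. These were Hbb-y, the zeta-like Hba-x (-1.43 ± 0.24) and the embryonic Hbb-bh1 (-0.9964 ± 0.28), the last of which lost its call without any of 5 mice, KO mice 1, 2 and 3 and WT mice 1 and 3. Of 3 other red cell genes, 0 passed by limma on the probe sets used, with 1 lower and 1 higher at an unadjusted p of 0.05. Over all 6 of their probe sets 2 fell, 1 of Slc4a1, the anion exchanger of red cells (-1.43 ± 0.33), and 1 of Epb42, a protein of the red cell membrane skeleton (-1.13 ± 0.15). Among 9 oocyte and placenta genes 4 fell, Oosp1 (-2.37 ± 0.20), the egg coat protein Zp3 (-1.65 ± 0.25), Nlrp5 (-1.07 ± 0.17) and Zp1 (-0.47 ± 0.13), while Zp2, another egg coat protein, rose (1.06 ± 0.21). Zp1 lost its call without KO mouse 2, KO mouse 3 or WT mouse 1, and 2 genes fell and 0 rose without the 3 arrays.

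Keratinocyte genes fell in 12 of 19 cases (median -1.19). They included Krt10 (-2.26 ± 0.32) and Krt1 (-2.18 ± 0.31), the keratins of cornifying skin, Lor, the envelope protein loricrin (-2.20 ± 0.44), and the protease Klk5 (-2.24 ± 0.18). Without WT mouse 2 and KO mice 2 and 3, 6 fell. The list of antigens known from earlier work to depend on Aire is under the same limit of choice as the organ lists. In it, 7 of 11 fell (median -2.03): Mucl2, Csn1s2a, Fabp2, Tff3, Spink1, the liver oxidase Cyp1a2 (-2.03 ± 0.27) and the insulin gene Ins2 (-1.57 ± 0.18). Ttr, the carrier transthyretin, read -1.01 ± 0.43 without passing, Gad2 0.38 ± 0.13, Rbp3 0.25 ± 0.10 and Svs2 0.0021 ± 0.098. The other Svs2 probe set fell (-1.96 ± 0.43, adjusted p = 0.0064), so this gene differs by probe set, and over all 21 probe sets of the list 9 fell, with a median of -1.01. Of 10 antigens known as outside Aire control, Pcp4 (-3.68 ± 0.29) and Gad1 (-1.01 ± 0.25) fell and Maoa rose (1.35 ± 0.23). The call of Gad1 was lost without KO mouse 2, KO mouse 3 or WT mouse 1. Its other probe set read 0.21 ± 0.26 without passing, while that of Maoa rose (0.70 ± 0.21).

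**Figure D3:**
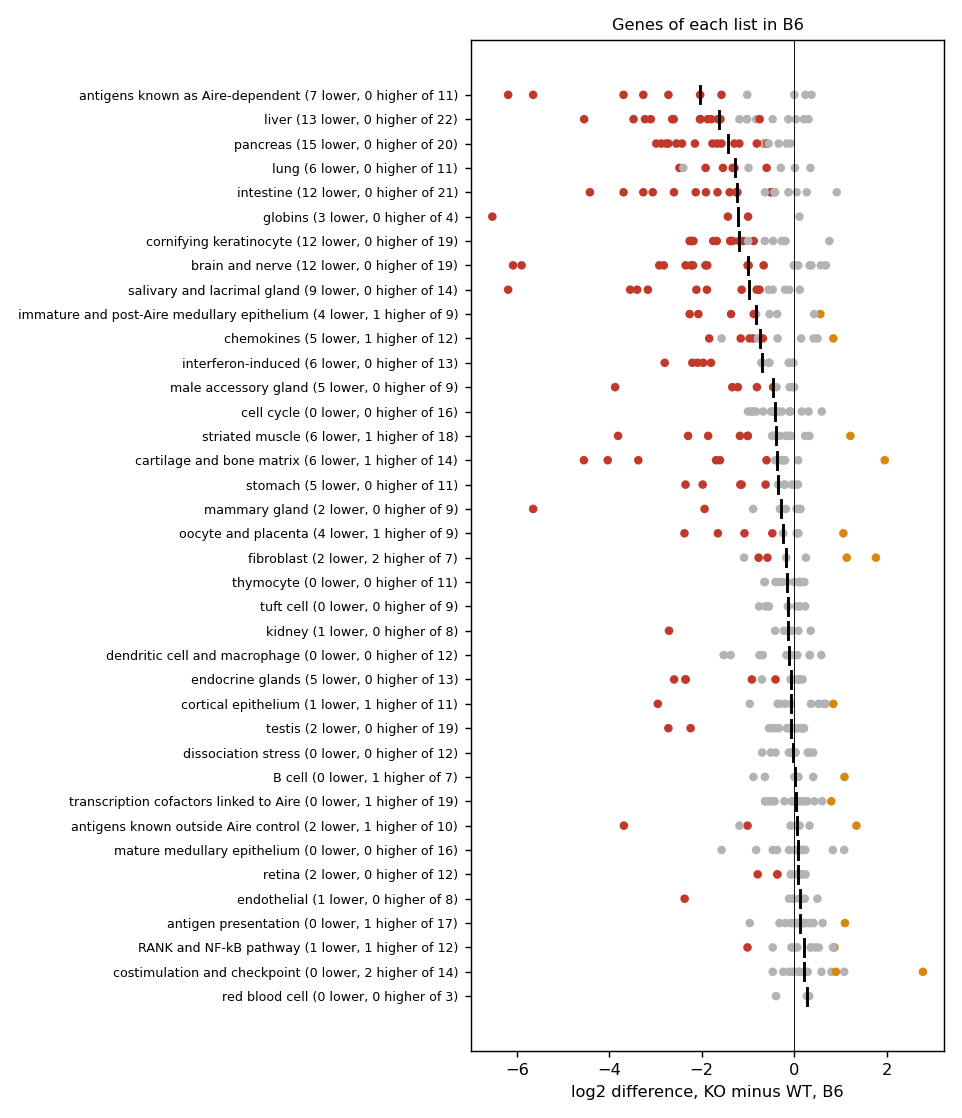
Each point is the KO minus WT log2 difference of 1 gene, in rows by list, coloured red where it fell, orange where it rose and grey where it did not pass, with a bar at the median. Organ lists such as liver (median -1.62) and pancreas (-1.43) lie left of 0, while mature medullary epithelium (0.07) and antigen presentation (0.13) lie near it.

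Of 13 interferon-induced genes 6 fell (median -0.70) and 7 did not pass, among them the antiviral proteins Rsad2 (-2.80 ± 0.28), Ifit3 (-2.20 ± 0.40) and Ifit2 (-2.09 ± 0.33) and the GTPase Gbp3 (-1.97 ± 0.29). Of 12 chemokines 5 fell, 1 rose and 6 did not pass, and over all 20 of their probe sets 6 fell and 1 rose, with a median of -0.23. Ccl5 read 10.96, 10.19 and 10.53 in KO mice and 12.41, 12.14 and 12.63 in WT mice (-1.84 ± 0.37). Ccl20 (-1.16 ± 0.22), Cxcl9 (-0.96 ± 0.21), Ccl2 (-0.88 ± 0.21) and Xcl1 (-0.68 ± 0.15) also fell, and Ccl25, which attracts thymocyte precursors, rose (0.85 ± 0.24). Ccl2 lost its call without KO mouse 3 or WT mouse 3, Ccl25 without KO mouse 2, KO mouse 3, WT mouse 1 or WT mouse 3, and 1 chemokine fell without the 3 arrays.

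The genes that mark mature medullary epithelium passed in 0 of 16 cases by limma, with 3 lower and 2 higher at an unadjusted p of 0.05. Cd80, a costimulatory ligand, read 8.94, 10.49 and 10.31 in KO mice and 8.12, 9.70 and 8.67 in WT mice (1.08 ± 0.41, adjusted p = 0.128), so the groups overlapped, and it passed without KO mouse 1 (1.57) or without WT mouse 2 (1.52). Relb read 0.84 ± 0.38 and passed without KO mouse 1 (1.26). Ccl22, a chemokine, read -1.57 ± 0.51 (adjusted p = 0.0677). Of 14 costimulatory genes Ctla4 and Tnfsf9 (0.90 ± 0.27) rose, and the count was 4 without KO mouse 1 and 1 without KO mouse 2, KO mouse 3, WT mouse 1 or WT mouse 3. Of 17 antigen presentation genes 1 rose, H2-Ob, a chain of the modulator of class II loading (1.10 ± 0.12), and 2 did without KO mouse 1 or WT mouse 2.

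Of 12 genes of the RANK and NF-kB pathway, which drives maturation of these cells, Traf6, an adaptor, rose (0.87 ± 0.17) and Tnfsf11, the ligand RANKL, fell (-1.01 ± 0.23). The other Tnfsf11 probe set read -0.01 ± 0.11 without passing. Other probe sets of Traf6 rose by 1.18, 0.56 and 0.46, and a further one read 0.20 without passing. Rises numbered 3 without KO mouse 1, and falls 2 without WT mouse 2. Among 19 cofactors linked to Aire, only Crebbp, a histone acetyltransferase, rose (0.80 ± 0.24). Its call was lost without KO mouse 1, 2 or 3 or WT mouse 1 or 3, and 2 cofactors rose without KO mouse 1 or without WT mouse 2. In the cell cycle list 0 of 16 passed by limma, with 4 lower and 1 higher at an unadjusted p of 0.05 (median -0.41, and -0.18 over all 34 probe sets). Rrm2 read -0.9999 ± 0.40 and Mcm5 -0.89 ± 0.32, both without passing. Mcm5 passed without KO mouse 1 (-1.14) or WT mouse 2 (-1.22).

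Markers of neighbouring epithelial types behaved unevenly. Of 9 genes of immature and post-Aire medullary epithelium, Krt10, Ly6d (-2.07 ± 0.28), Krt15 (-1.36 ± 0.19) and Ivl, the cornified envelope protein involucrin (-0.87 ± 0.23), fell and Itga6, an integrin, rose (0.57 ± 0.17). Ivl lost its call without KO mouse 1, KO mouse 3 or WT mouse 3, and Itga6 without KO mouse 2, KO mouse 3, WT mouse 1 or WT mouse 3. Tuft cell genes passed in 0 of 9 cases by limma on the probe sets used, with 1 lower at an unadjusted p of 0.05 and a median of -0.14. Over all 20 of their probe sets 3 fell, with a median of -0.55, and all 3 belong to Dclk1, a kinase that marks tuft cells (-1.93 ± 0.36, -1.30 ± 0.26 and -1.23 ± 0.30). The Dclk1 probe set used read -0.76 without passing. Of 11 cortical epithelium genes Enpep, an aminopeptidase that is the Ly51 antigen used in the sort, fell (6.14, 5.58 and 5.79 in KO mice, against 8.88, 8.74 and 8.74 in WT mice, -2.95 ± 0.20) and Ccl25 rose, with the limits given above.

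Markers of cells that the gate should remove were read in the same arrays, and their part in the results above was not tested. The mean of 12 dendritic cell and macrophage markers was 7.70, 8.08 and 7.95 in KO mice, against 8.06, 8.23 and 8.29 in WT mice, and 0 of 12 passed by limma, with 1 lower and 1 higher at an unadjusted p of 0.05. Adgre1 read 6.92, 7.97 and 7.58 in KO mice and 9.26, 9.04 and 8.73 in WT mice (-1.52 ± 0.63, adjusted p = 0.165). The mean of 11 thymocyte markers ran from 6.59 to 6.77 in KO mice and from 6.82 to 6.92 in WT mice, with 0 past the threshold by limma and 2 lower at an unadjusted p of 0.05. Of 7 B cell markers Cr2, a complement receptor, rose (1.09 ± 0.28), a call lost without KO mouse 2, KO mouse 3, WT mouse 1 or WT mouse 3.

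Of 7 fibroblast markers, the proteoglycans Dcn (1.77 ± 0.22) and Lum (1.14 ± 0.22) rose, while the collagen chains Col1a2 (-0.77 ± 0.17) and Col1a1 (-0.58 ± 0.16) fell. Neither collagen passed without KO mouse 3, and Col1a1 also lost its call without KO mouse 2, WT mouse 1 or WT mouse 3. Of 8 endothelial markers 1 fell, Cd34, which read 4.84, 5.40 and 4.78 in KO mice and 7.31, 7.36 and 7.46 in WT mice (-2.37 ± 0.26). Immediate early genes of tissue dissociation passed in 0 of 12 cases by limma, with 1 lower at an unadjusted p of 0.05.

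The falls in B6 were set beside those of the other backgrounds, which share no arrays with B6. Of the 916 genes that fell at least 2-fold in B6, 469 (51.2%) also did so in BALB, where 578 genes did (3.18% of all genes), so that they made up 81.1% of the BALB genes. In NOD 428 (46.7%) did, 86.1% of its 497 genes (2.73%). Of the 190 rising genes 65 rose at least 2-fold in BALB (0.528% of all genes did) and 66 in NOD (0.693%). Conversely, 348 genes were at least 2-fold lower in both BALB and NOD. The B6 values did not enter these fold changes, but the choice was not free of the B6 arrays, since the spread behind the adjusted p and the probe set of each gene came from all 20 arrays. In B6, 341 of these (98.0%) fell, 0 rose and 7 did not pass, against 9.27% of all genes that fell, a share that the common spread can raise. The 3 KO values lay below the 3 WT values in 344 of the 348, against 17.5% of all genes, under the same limit, and the median difference was -2.09. The same genes had medians of -1.68 in BALB and -1.86 in NOD, which the choice itself used.

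The effect itself differed between B6 and the mean of the other strains for 53 genes (0.291% of all genes) and 91 probe sets (0.202%). It was more negative in B6 for 41 genes (0.225%) and more positive for 12 (0.066%). Without KO mouse 2, KO mouse 3 or WT mouse 3, 35, 34 and 45 probe sets passed, and 19 did without WT mouse 2 and KO mice 2 and 3. Gatm, an enzyme of creatine synthesis, read 5.93, 5.83 and 5.83 in KO mice and 9.90, 9.78 and 9.55 in WT mice. Its difference was -3.88 ± 0.39 in B6, against -1.24 in BALB and -0.99 in NOD, where the WT means were 7.61 and 7.70. Khdc1a, a gene of oocytes and early embryos, differed by -3.01 in B6, -0.76 in BALB and -0.52 in NOD. Its WT means were 9.95, 6.14 and 5.78 in the same order. Dcpp3, a gland secretory protein, differed by -2.45, -0.32 and -0.24 in the same strains. Its WT means were 9.28, 7.24 and 7.18, and its KO means 6.83, 6.93 and 6.94. Dcpp1, a relative given for comparison and not counted among the genes named, fell less in B6 (-0.81) than in BALB (-1.96) and NOD (-2.14). Its strain difference of 1.24 passed too (limma, adjusted p = 0.0322). For Gatm, Khdc1a and Dcpp3 the strains thus differed in WT level too, and the part of that level in the effect was not tested.

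The opposite pattern was seen for 2 transcripts that the annotation lists under clone names. 1700003P14Rik read 7.27, 7.61 and 7.37 in KO mice and 4.42, 4.97 and 5.63 in WT mice, a difference of 2.41 ± 0.25, against 0.16 in BALB and 0.18 in NOD. 4833422C13Rik read 5.87, 6.25 and 6.31 in KO mice and 3.49, 3.82 and 3.84 in WT mice (2.42 ± 0.19), against 0.47 in BALB and -0.015 in NOD. In BALB and NOD both transcripts lay near the bottom of the scale in KO and WT mice alike. Their group means there ran from 3.62 to 3.96 for 1700003P14Rik and from 3.11 to 3.84 for 4833422C13Rik. Chga, the granule protein chromogranin A, which was chosen after its values were seen, fell in B6 (-0.81 ± 0.13) but read 0.90 in BALB and 0.47 in NOD.

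**Figure D4:**
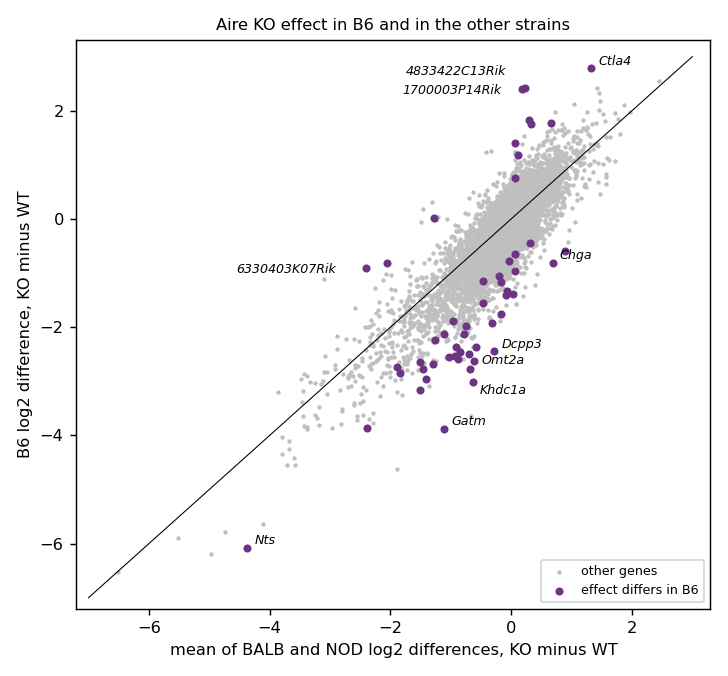
The KO minus WT log2 difference in B6 is plotted against the mean of those in BALB and NOD, 1 point per gene, with the line of equality. The 53 purple points passed the test of the difference between strains, with Gatm (-3.88 in B6) below the line and Ctla4 (2.79 in B6) above it.

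Genes that fell lay next to one another on the chromosome more often than measured genes in general, as a description in the annotation order. Of 913 placed genes that fell at least 2-fold, the next measured gene also did so for 166 (18.2%), against 5.06% over all genes. For the 190 rising genes the share was 7.37%, against 1.05%. Runs of at least 4 falling neighbours numbered 11 and held 49 genes. They included the keratins Krt1, Krt77, Krt76 and Krt4, the Reg genes of pancreas and gut, Reg3a (-2.74 ± 0.12), Reg2 (-1.19 ± 0.15), Reg1 and Reg3g (-1.40 ± 0.20), and the acute phase genes Saa3 (-2.32 ± 0.25), Saa4, Saa1 and Saa2. Genes of such families are alike in sequence, and their probe sets may share signal.

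The chemokine run of Cxcl5 (-3.01 ± 0.52), Ppbp (-3.08 ± 0.28), Pf4 (-1.60 ± 0.33), Cxcl3 (-1.98 ± 0.38) and Cxcl15 (-1.38 ± 0.17) was chosen after its values were seen. Cxcl5, an attractant of neutrophils, read 6.66, 7.89 and 6.94 in KO mice and 9.76, 10.68 and 10.09 in WT mice. Every WT mouse was above every KO mouse. Another run joined unlike genes, Sult1b1, Sult1d1 and Sult1e1, which are sulfotransferases, and the casein Csn1s1. Just 1 run of 3 rising neighbours was found, Rgr (1.13 ± 0.17), Lrit1 (1.69 ± 0.18) and Lrit2 (1.98 ± 0.19), which are known from the retina.

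The 40 measured genes around Aire, 20 on each side, had a median difference of 0.011. Of these, 35 did not pass, 3 fell and 2 rose, a share near the 12.5% of all genes that passed. Col6a1 (-0.98 ± 0.21), Col18a1 (-0.61 ± 0.11) and Plpp2 (-0.74 ± 0.13) fell, and the immediate neighbours Pfkl (1.14 ± 0.29) and Dnmt3l (1.85 ± 0.31) rose. Dnmt3l, a cofactor of DNA methyltransferases, read 10.02, 10.87 and 10.72 in KO mice and 8.47, 8.88 and 8.72 in WT mice. Icosl, a costimulatory ligand next to Dnmt3l, read 0.81 ± 0.29 without passing (adjusted p = 0.107). Pfkl, a phosphofructokinase, lost its call without KO mouse 2, KO mouse 3, WT mouse 1 or WT mouse 3 (highest adjusted p = 0.124).

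**Figure D5:**
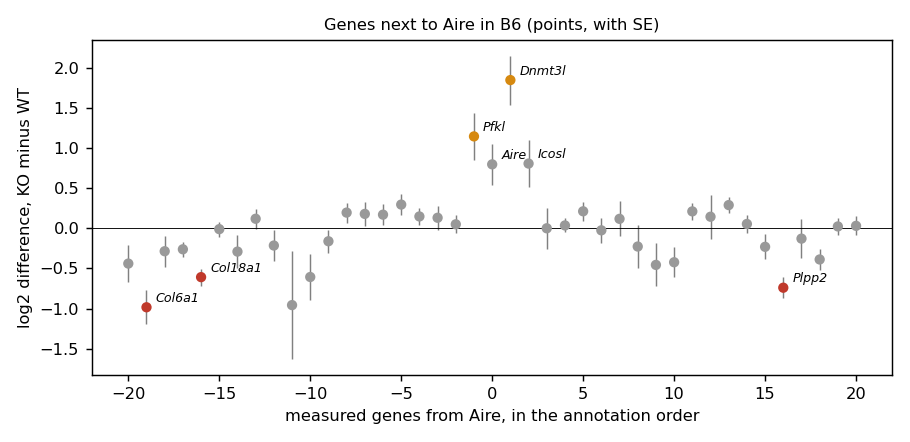
The KO minus WT log2 difference, with its standard error, is shown for Aire and the 20 measured genes on either side in the annotation order. Dnmt3l (1.85), Pfkl (1.14), Icosl (0.81) and Aire (0.80) stand above all the other genes, and Col6a1 (-0.98) is the lowest.

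The WT mice were not alike in all genes that passed. Among these, the SD over the 3 WT mice was largest for Myom2, a muscle M-band protein (1.66), Tcfl5 (1.51), Cacna2d2 (1.34), the lens crystallin Cryab (1.28) and Phlda1 (1.27). Myom2 read 7.27, 5.42 and 4.96 in KO mice and 9.12, 6.01 and 8.57 in WT mice. Tcfl5, a transcription factor of testis, read 4.47, 4.69 and 4.72 in KO mice and 8.96, 5.99 and 7.91 in WT mice. WT mouse 2 was the lowest WT mouse in both, and for Myom2 it lay below KO mouse 1. Other probe sets of Myom2 (-1.29, -0.29 and 0.13) and Cacna2d2 (0.24 and 0.23) did not pass. Another of Cryab fell (-0.79), and a further one read 0.12 without passing. The calls of Myom2, Cacna2d2, Cryab and Phlda1 were lost without any of KO mice 2 and 3 and WT mice 1 and 3, with a highest adjusted p of 0.227, while Tcfl5 (-2.99 ± 0.52) kept its call without each of the 6 mice in turn. KO mouse 1 was the highest KO mouse in Myom2, Cacna2d2, Cryab and Phlda1, and WT mouse 2 the lowest WT mouse in all 5 genes. The 3′ to 5′ difference of Gapdh ran the same way, at 2.91 in KO mouse 1 against 1.68 and 1.84 in the other KO mice, and at 1.90 in WT mouse 2 against 3.76 and 2.31 in the other WT mice. With it as a covariate Myom2 (-1.51, adjusted p = 0.0759) and Cacna2d2 (-1.32, adjusted p = 0.0559) no longer passed, while Tcfl5, Cryab and Phlda1 did. This covariate differs between the same mice as the values do, and whether RNA quality had a part in them was not tested.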

How the data were processed

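Gene expression was measured in sorted medullary thymic epithelial cells of 20 mice, 6 of them B6. The deposited table gives intensity on a linear scale, made by the authors with RMA, per the submitters' processing notes. The RMA version and settings, and which arrays were normalized as 1 set, are unknown here. RMA evens out array-wide shifts, so a shift of all genes could not be seen. RNA was amplified in 2 rounds, per the labels' protocols, which can favour 3′ ends.

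Groups came from sample titles. Of 45101 probe sets 64 controls were left out and log2 was taken. Using limma 3.58.1 (lmFit, eBayes; R 4.3.3), a mean was fitted for each of the 6 groups over the 20 arrays, with Benjamini-Hochberg adjustment over 45037 probe sets and a threshold of 0.05. A second contrast took the B6 effect minus the mean of the BALB and NOD effects. P-values measure the spread between individual mice. The annotation gave 1 symbol for 34945 probe sets, several for 932 and none for 9160, which are unnamed here. No detection calls were used, so folds near the bottom of the scale may be understated. RefSeq (GRCm38.p6) served for names, gene order and promoters. Tables were also made with Python 3.11.15. The fit was also run on simulated arrays with independent noise, which these arrays need not have, so that run gives no error rate for them.

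The text names Aire, 12 falls and 10 rises of largest size without overlap, up to 4 members of each of 38 lists (481 of 524 entries measured), the 4 largest strain differences each way, the 5 largest WT spreads, 20 neighbours of Aire on either side and the label checks H2-Ea, Nnt and Gapdh. Runs of neighbours, members that complete a count and 2 further lists were named after their values were seen. The members and lists were chosen with earlier results of these data known. Of the 228 genes named, 79 had another probe set. Among 86 other probe sets of genes that passed, 46 passed with the same sign, 0 with the opposite sign and 40 did not pass. Of these 40, 15 were of opposite sign, among them a probe set of Plpp2 (0.31), Lor (0.14) and Saa4 (0.05). Of 49 other probe sets of genes that did not pass, 6 fell, of Dclk1, Epb42, Slc4a1 and Svs2, and 0 rose. Alternatives changed the scaling, the probe sets and arrays used, the variance model, weights, blocks and the fold limit, or left out mice.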

Additional observations from a re-analysis of the deposited data

Results flagged for a closer look

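Each gene below is given because its KO effect in B6 differed from the mean of the effects in BALB and NOD by a test of the difference itself (limma, adjusted over all probe sets). Values are log2 differences, the B6 effect minus that mean. Those past the threshold made up 0.291% of all genes.

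The effect was more negative in B6 for 13 of the genes named. The difference was -2.77 for Gatm, -2.37 for Khdc1a, -2.17 for Dcpp3 and -2.10 for Omt2a. It was -1.71 for Nts, -1.71 for Omt2b, -1.65 for Bpifa2 and -1.53 for Enpep. It was -1.50 for Chga, which fell in B6 and read higher in the KO mice of both other strains, -1.45 for Oosp1 and -1.33 for Sult1b1. The smallest were -1.01 for Mcpt1 and -0.85 for Reg3a. In WT mice Omt2a averaged 5.96 in B6, but 3.92 in BALB and 3.80 in NOD, near the bottom of the scale.

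The effect was more positive in B6 for 7 of the genes named. The difference was 2.24 for 1700003P14Rik and 2.20 for 4833422C13Rik, which has Acot12 (1.11) as its neighbour. It was 1.52 for 2810404M03Rik, 1.46 for Ctla4 and 1.29 for Prg3. Ctla4 also rose in BALB (2.04), while its 0.61 in NOD did not pass. Prg3 passed neither in B6 (0.02) nor in BALB (-0.44), but fell in NOD (-2.10). For 6330403K07Rik the difference was 1.503, where the gene fell less in B6 (-0.90) than in BALB (-1.85) and NOD (-2.95). Its B6 call was lost without KO mouse 3 or WT mouse 1 (limma, highest adjusted p = 0.0694). Mrps30, next to 1700003P14Rik, rose in B6 (1.08 ± 0.17) but its strain difference of 0.87 did not pass (adjusted p = 0.141). The causes were not tested.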

How the results depend on the processing

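The B6 comparison called 3880 probe sets, with 1686 genes lower and 580 higher, 916 and 190 of them at least 2-fold, and 91 probe sets differing between strains. Leaving out each B6 mouse gave 2387 to 5307 probe sets, 1213 to 1942 and 284 to 930 genes, 825 to 1074 and 128 to 295 at least 2-fold, and 34 to 122 between strains. With the 6 B6 arrays alone 2517 probe sets passed and 317 genes rose. KO mice 2 and 3 as 1 sample gave 2524 probe sets, 309 rising genes and 35 between strains. Array weights gave 12733 probe sets, 3534 and 2673 genes, 370 rising at least 2-fold and 2616 between strains. Bright probe sets alone gave 2531 and 42, and a 2-fold limit left 1752. A test against a 1.5-fold change gave 808 probe sets, 482 and 55 genes and 5 between strains. Without WT mouse 2 and KO mice 2 and 3 there were 1245 probe sets, 710 and 104 genes, 81 rising at least 2-fold and 19 between strains. Fewer samples or probe sets account for part of these by construction, and the cause was not tested for the others.

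Whether KO and WT mice of the same number were paired is not known. Across probe sets, deviations of same-numbered mice correlated at r = 0.78, 0.72 and -0.13. Those of differently numbered mice ran from -0.81 to 0.67, so the values do not settle the question. With the replicate block, 9695 probe sets, 3221 and 1798 genes and 841 between strains passed. Genes near 0 on the probe set used changed sign without passing. H2-Ea read -0.13 with array weights, -0.029 within 1 run of sample codes, and -0.082 to 0.18 over the mice left out in turn. Prg3 read -0.10 with array weights, -0.29 without the 3 arrays, -0.024 with KO mice 2 and 3 as 1 sample, -0.042 with the Gapdh covariate, and -0.12 to 0.20 over single mice. Svs2 read -0.022 with quantile normalization or the Gapdh covariate, -0.055 without the 3 arrays, -0.011 with KO mice 2 and 3 as 1 sample and -0.026 to 0.028 over single mice, while its other probe set fell (-1.96). Cpa3 read 0.17 without the 3 arrays, 0.026 with the Gapdh covariate and -0.22 to 0.041 over single mice. Tpsb2 read -0.047 without the 3 arrays and -0.047 to 0.13 over single mice, and Elane -0.034 to 0.19. Of 188 named genes past the threshold, 160 kept their call without any 1 B6 mouse and 28 did not. A comparison of promoter letters between genes falling or rising at least 2-fold and all genes is not given. Part of each set lacked a promoter in the table, which 78.8%, 77.4% and 79.4% of them had. Signal near the bottom of the scale limits the folds of the largest falls.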

Other observations

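Genes of granulocytes and mast cells, many of them for granule proteins, were listed after their values were seen. Of 16 such genes 10 fell and 1 rose, against 9.27% of all genes that fell and 3.19% that rose. The list median was -2.23, against 0.013 over all genes. S100a9, a calcium-binding protein of neutrophils, read 6.29, 6.39 and 6.05 in KO mice and 9.80, 9.59 and 10.49 in WT mice (-3.71 ± 0.46). Rnase2b, an eosinophil-type ribonuclease, differed by -3.79 ± 0.29, Rnase2a by -3.63 ± 0.74, the mast cell protease Mcpt1 by -2.84 ± 0.16, Mcpt2 by -2.75 ± 0.22, S100a8 by -2.75 ± 0.42 and the IgE receptor chain Ms4a2 by -2.62 ± 0.20. Mpo, the myeloperoxidase of neutrophils, read 6.50, 6.53 and 6.74 in KO mice and 9.06, 9.11 and 9.03 in WT mice (-2.48 ± 0.14), and the eosinophil peroxidase Epx (-1.99 ± 0.23) and Ms4a3 (-1.15 ± 0.22) fell too. Prg2, an eosinophil granule protein, rose (0.86 ± 0.21), a call lost without KO mouse 2, KO mouse 3 or WT mouse 1, and its relative Prg3 read 0.02 ± 0.20. The mast cell proteases Mcpt4 (-0.22 ± 0.12), Cpa3 (-0.09 ± 0.15) and Tpsb2 (0.07 ± 0.11) and the neutrophil elastase Elane (0.08 ± 0.15) did not pass. Granulocytes and mast cells carry CD45, so the CD45-negative gate should remove them. Which cells carried these transcripts was not tested.

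Glutathione S-transferases, enzymes that join glutathione to foreign compounds, formed the other such list. They fell in 10 of 15 cases (median -1.08), against 9.27% of all genes. Gsto1 differed by -2.63 ± 0.54, Gstm3 by -2.62 ± 0.21, Gstm5 by -2.10 ± 0.18, Gstm2 by -1.996 ± 0.22, Gstm1 by -1.69 ± 0.14 and Gsta4 by -1.68 ± 0.32. Gstm3 read 8.14, 7.88 and 7.90 in KO mice and 11.07, 9.92 and 10.80 in WT mice, without overlap. Gsta2 (-1.45 ± 0.28), Gstm6 (-1.08 ± 0.17), Gstk1 (-1.06 ± 0.15) and Gstm4 (-0.39 ± 0.11) fell less, and Gstm4 lost its call without KO mouse 2, KO mouse 3, WT mouse 1 or WT mouse 3. Members of the Gstm group are alike in sequence, and their probe sets may share signal.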
